A study of Sus scrofa with 4 samples.

Results

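Neural tube regional patterning factors are the transcription factors, most of them homeobox proteins, that give the parts of the early nervous system their identity. Forebrain and eye-field factors mark its front end, midbrain and isthmus factors the border between midbrain and hindbrain, and NKX, DBX, DLX, LMX1 and GLI factors its dorsal and ventral levels. Many of these genes also pattern skin, limb, kidney or face, so a signal from 1 of them does not by itself name a cell type. The 41 genes were listed by name for their textbook roles, with earlier results of these data known, and 40 of the 25880 genes in the count table matched them, 39 by Ensembl identifier and POU3F2 by its position on Sscrofa11.1. PAX8 was not matched and was not analysed here.

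RNA was sequenced from porcine cells at successive steps of reprogramming, all derived from ear skin fibroblasts of 1 young pig. The groups were the fibroblasts themselves at passage 1 (n = 1), the induced neural stem cell-like cells that arose from them, called iNSLCs, at passage 1 (n = 1), and the induced pluripotent stem cells, called iPSCs, at passage 3 (2 clones). The iNSLCs were dome-shaped colonies that appeared after the fibroblasts received episomal vectors carrying reprogramming genes, none of which is among the 40 factors. The iPSC clones were picked after iNSLCs had been moved to a pluripotency medium with TGF-β1, activin A and IWP2, which inhibits WNT secretion. The p-values below therefore rest on the spread between 2 clones of 1 animal.

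The libraries held 62421521 (fibroblasts), 25784594 (iNSLCs), 21640374 (iPSC clone 1) and 41296933 (iPSC clone 2) counts. Levels are CPM, the counts of a gene scaled to a common library size, with library sizes adjusted by TMM, and 3 counts in a library corresponded to between 0.0648 and 0.127 CPM, the level up to which a gene with 0 counts could lie. Libraries with under 3 counts were raised to 3 counts for folds, so a fold against a group at 0 is a lower bound set by this floor, per library. Marker genes of fibroblasts, led by COL1A1 and COL1A2, summed to 118164 CPM in fibroblasts, 35977 CPM in iNSLCs, and 752 and 743 CPM in the clones, with none of the 6 at 0 in any library. The neural stem markers summed to 52.4, 644, 564 and 632 CPM in the same order, with FABP7, SOX1 and HES5 at 0 in fibroblasts. NES held most of the iNSLC and clone sums (384, 461 and 505 CPM). PAX6 ran the other way, at 21.5, 14.6, 2.32 and 6.71 CPM. The pluripotency markers summed to 0.108, 244, 641 and 672 CPM, with POU5F1 and NANOG at 0 in fibroblasts. In iNSLCs, LIN28A was at 202 CPM, POU5F1 at 40.5 CPM, TDGF1 at 1.12 CPM and NANOG at 0.209 CPM. The transfected vectors carried human OCT4 (POU5F1), LIN28 and NANOG, and whether their reads entered these counts was not tested. Each library is a bulk sample, in which fewer cells of a type and less RNA per cell cannot be told apart.

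Taken over all 40 factors, the summed level was highest in iNSLCs, and single factors peaked in each of the groups. It was 388 CPM in fibroblasts, 1002 CPM in iNSLCs, and 569.9 and 537 CPM in iPSC clones 1 and 2. At 1 CPM or more there were 24, 29, 28 and 29 of the 40 factors in that order. The highest group was the fibroblast library for 6 factors, the iNSLC library for 21 and the iPSC mean for 13, and it exceeded the next group by at least 2-fold for 3, 14 and 9 of them. Of the 40, 36 reached 1 CPM in some library, 24 reached 10 CPM and 4 reached 100 CPM: OTX2, MEIS2, GLI3 and NR2F2.

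**Figure D1:**
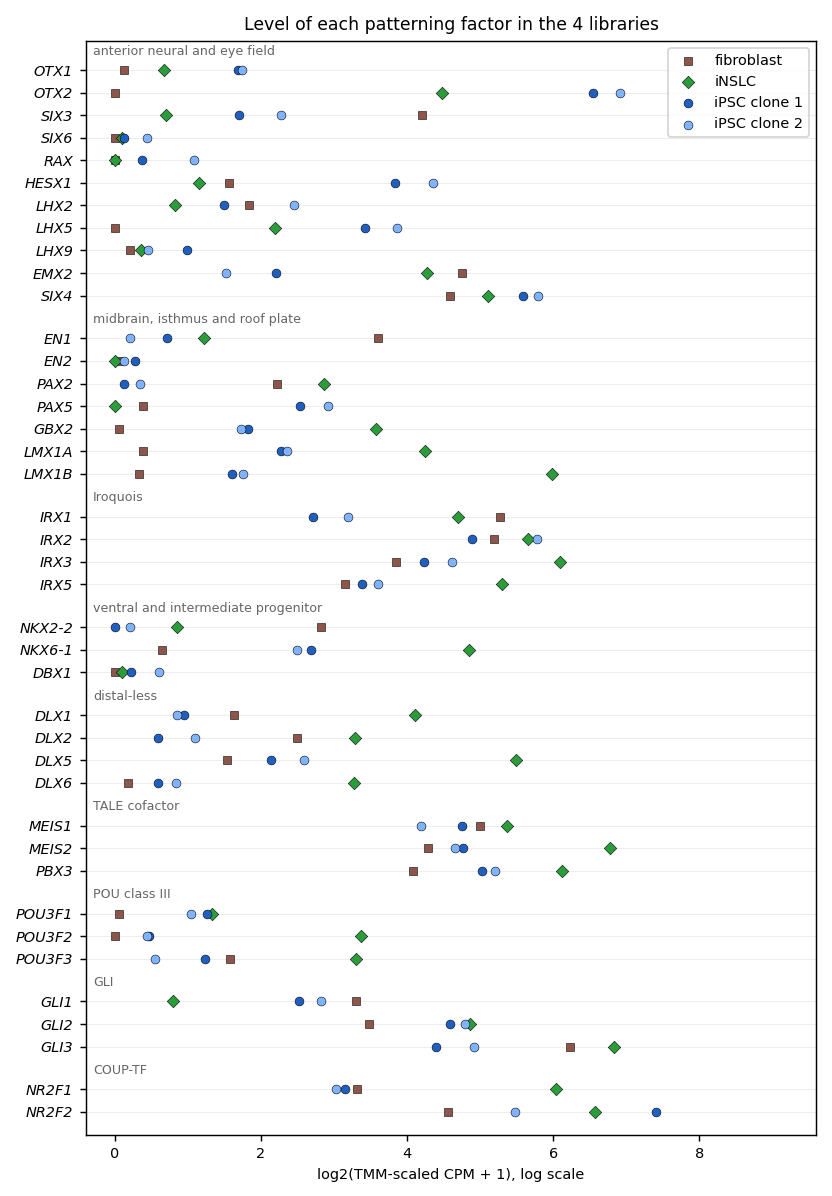
Level of each of the 40 factors as log2(TMM-scaled CPM + 1), grouped by role, with 1 point per library (squares fibroblast, diamonds iNSLC, circles the 2 iPSC clones). OTX2 reaches 92.0 and 119 CPM in the clones with 0 counts in fibroblasts, while LMX1B, DLX5 and NR2F1 are highest in the iNSLC library.

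In iPSCs against fibroblasts, the edgeR quasi-likelihood test with Benjamini-Hochberg adjustment at 0.05 called 18 of the 40 factors higher (45.0%, where 29.6% of all 15739 tested genes were called higher) and 9 lower (22.5%, where 27.5% of all tested genes were called lower). The median log2 ratio of the factors was 1.14, beside 0.13 over all tested genes. Against iNSLCs, 7 factors were called higher in iPSCs (17.5%, background 14.1%) and 19 lower (47.5%, background 14.1%), with a median log2 ratio of -1.36 beside -0.0 over all tested genes. Both comparisons use the same iPSC libraries, so their calls are not independent. Side by side, 9 factors were higher in iPSCs than in fibroblasts and lower than in iNSLCs, 5 were higher than in both, 6 were lower than in both, and SIX3 alone was lower than in fibroblasts and higher than in iNSLCs. The share of all tested genes with each pair of calls was not computed. EN2 was too weak to be tested.

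By size alone, counting ratios of at least 4-fold with every library of the higher group at 1 CPM or more, iNSLCs exceeded fibroblasts for 18 factors (45.0%, background 13.2%) and were lower for 4 (10%, background 7.26%). With 1 library in each of these groups there is no test, and the intervals printed for single ratios cover counting error only. The median log2 ratio of the factors was 1.20 in iNSLCs over fibroblasts, beside 0.10 over all tested genes. The same size rule gave 11 factors higher in iPSCs than in fibroblasts (background 13.4%) and 7 lower (background 9.09%), and 6 higher in iPSCs than in iNSLCs (background 4.66%) and 15 lower (background 5.72%).

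**Figure D2:**
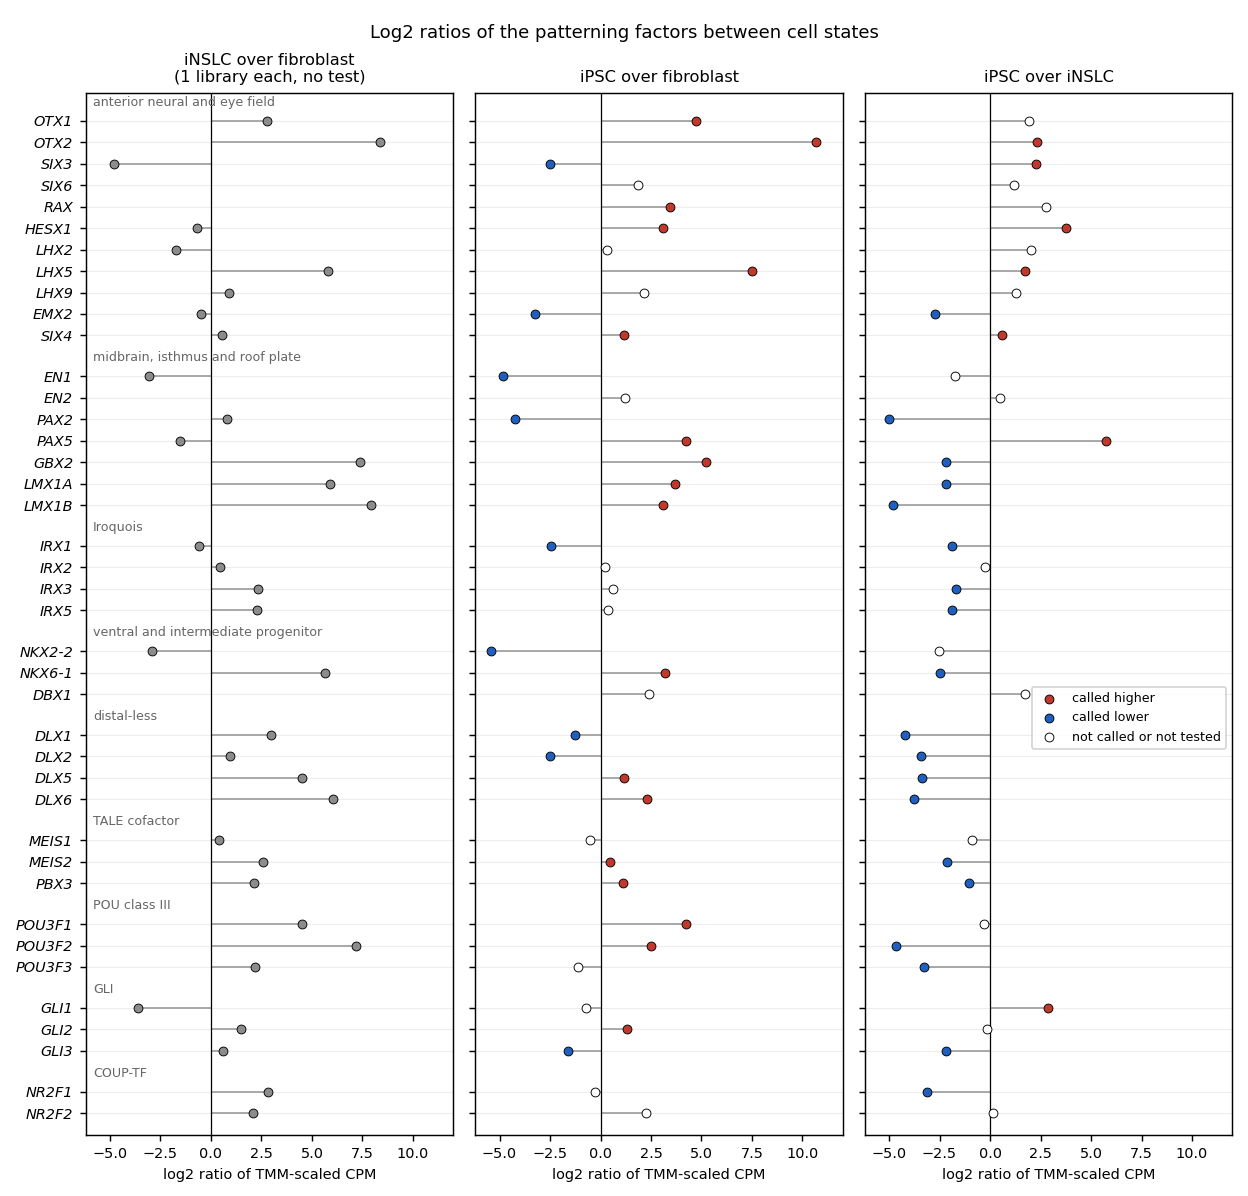
Log2 ratios of TMM-scaled CPM for iNSLC over fibroblast (grey, no test), iPSC over fibroblast and iPSC over iNSLC, with factors called higher in red, called lower in blue and the others white. Libraries under 3 counts are raised to 3 and no point is drawn where both groups are at or under 3 counts. In the right panel 19 factors are called lower and 7 higher.

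Among the 11 factors grouped under forebrain and eye field, 6 were called higher in iPSCs than in fibroblasts and 2 lower (29.6% and 27.5% of all tested genes). Against iNSLCs, 5 were called higher in iPSCs and 1 lower (14.1% of all tested genes in each direction). The group includes SIX4, which is not specific to these regions and is among the higher calls in both comparisons. OTX2, the head homeobox factor that also acts in primed pluripotent cells, had the largest ratio of iPSCs to fibroblasts of the 40. It had 0 counts in fibroblasts, 21.2 CPM in iNSLCs, and 92.0 and 119 CPM in iPSC clones 1 and 2 (105 ± 18.8 CPM, mean ± SD of 2 clones). Both clones lay above both other libraries. Their mean was 1625-fold above the fibroblast floor and 4.96-fold above iNSLCs (log2 ratio 2.31 ± 0.22 SE, edgeR adjusted p = 0.00494). Its relative OTX1, which acts in the forebrain and midbrain, stood at 0.0864 CPM in fibroblasts, 0.593 CPM in iNSLCs, and 2.20 and 2.34 CPM in the clones. OTX1 was 26.2-fold higher in iPSCs than in fibroblasts (edgeR adjusted p = 0.00535), whereas the 3.82-fold ratio to iNSLCs missed the threshold (edgeR adjusted p = 0.0678). Per length, OTX2 reached 64.6 and 84.9 TPM (transcript units scaled for gene length) in the clones and OTX1 reached 2.17 and 2.36 TPM.

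LHX5, a LIM homeobox factor of the early forebrain, followed the course of OTX2, with 0 counts in fibroblasts, 3.56 CPM in iNSLCs, and 9.71 and 13.5 CPM in the clones. The iPSC level was 179-fold above the fibroblast floor and 3.26-fold above iNSLCs (edgeR adjusted p = 0.0293). HESX1, a homeobox repressor of the anterior neural plate and pituitary that pluripotent cells also transcribe, did not pass through an iNSLC peak. It was at 1.94 CPM in fibroblasts, 1.22 CPM in iNSLCs, and 13.3 and 19.5 CPM in the clones, and iPSCs exceeded fibroblasts by 8.45-fold (edgeR adjusted p = 0.00288) and iNSLCs by 13.4-fold (edgeR adjusted p = 0.00674). HESX1 shares 206 exon bases with APPL1. SIX4, a homeobox factor of placodes, muscle and neurons, was at 23.0, 33.4, 47.2 and 54.3 CPM in the fibroblast, iNSLC and clone 1 and 2 libraries. Its iPSC level was 2.21-fold that of fibroblasts (edgeR adjusted p = 0.00421) and 1.52-fold that of iNSLCs (edgeR adjusted p = 0.0493), and this second call was lost with DESeq2, with total-count scaling and without the low-count filter.

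The eye-field genes were weak in iPSCs and uneven between the clones. RAX, which is required for eye formation, had 0 counts in fibroblasts and in iNSLCs, 7 counts in clone 1 and 51 in clone 2 (0.296 and 1.11 CPM). Its iPSC level was 10.9-fold above the fibroblast floor (edgeR adjusted p = 0.0364) and 6.73-fold above the iNSLC floor (edgeR adjusted p = 0.0785, not called). SIX6 had 0 counts in fibroblasts, 2 in iNSLCs, and 2 and 16 in the clones, under 1 CPM in all 4 libraries and not called against either group (edgeR adjusted p = 0.101 and 0.479). LHX2, a LIM homeobox factor of eye field, cortex and hair follicle, was at 2.55 CPM in fibroblasts, 0.768 CPM in iNSLCs, and 1.82 and 4.48 CPM in the clones, and the 2 clones lay on either side of the fibroblast value. Neither its 1.24-fold ratio to fibroblasts (edgeR adjusted p = 0.695) nor its 4.10-fold ratio to iNSLCs (edgeR adjusted p = 0.106) passed. LHX9 stayed under 1 CPM in every library, with 7 counts in fibroblasts, 8 in iNSLCs, and 23 and 17 in the clones, and was not called either (edgeR adjusted p = 0.17 and 0.432).

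With TMM scaling, SIX3 and EMX2 were highest in fibroblasts, EMX2 by only 1.41-fold over iNSLCs. SIX3, which specifies forebrain and eye and represses WNT signalling, was at 17.4 CPM in fibroblasts, 0.628 CPM in iNSLCs, and 2.24 and 3.83 CPM in the clones. It was therefore 27.7-fold lower in iNSLCs than in fibroblasts (95% counting interval 17.4 to 46.9). In iPSCs it was 5.73-fold lower than in fibroblasts (edgeR adjusted p = 0.0055) and 4.83-fold higher than in iNSLCs (edgeR adjusted p = 0.034), the only factor with this pair of calls. The call against iNSLCs was lost with 3 libraries in the fit. EMX2, a cortical and urogenital homeobox factor, was at 25.9 CPM in fibroblasts and 18.3 CPM in iNSLCs, and at 3.59 and 1.88 CPM in the clones, which were below both. The order of fibroblasts and iNSLCs depends on the scaling, and per length they were at 13.7 and 13.6 TPM. Total-count scaling raised all ratios of iNSLCs to fibroblasts by 0.58 on the log2 scale, beside a log2 ratio of -0.5 for EMX2. Its iPSC level was 9.47-fold below fibroblasts (edgeR adjusted p = 0.00274) and 6.70-fold below iNSLCs (edgeR adjusted p = 0.0126). The summed fibroblast markers stood at 118164 CPM in fibroblasts, 35977 CPM in iNSLCs, and 752 and 743 CPM in the clones. From fibroblasts to iNSLCs and to the clones, this was a larger fall than that of EMX2. Singly, COL1A2, LUM and PDGFRA were higher and COL1A1, DCN and THY1 lower in clone 2 than in clone 1. The part of fibroblasts in the iNSLC level of EMX2 was not tested.

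The 7 factors of midbrain, isthmus and roof plate divided by library, with 4 called higher and 2 called lower in iPSCs against fibroblasts (29.6% and 27.5% of all tested genes), and 1 called higher and 4 called lower against iNSLCs (14.1% of all tested genes in each direction). LMX1B, a LIM homeobox factor needed by midbrain dopaminergic and serotonergic neurons and by the limb, was high in iNSLCs and low in the other groups. It was at 0.259 CPM in fibroblasts, 62.2 CPM in iNSLCs, and 2.03 and 2.38 CPM in the clones (2.20 ± 0.251 CPM). Thus iNSLCs exceeded fibroblasts by 239.9-fold (95% counting interval 137 to 465), and iPSCs were 28.2-fold below iNSLCs (log2 ratio -4.80 ± 0.21 SE, edgeR adjusted p = 0.00136) yet 8.51-fold above fibroblasts (edgeR adjusted p = 0.00157). LMX1A, its relative in roof plate and midbrain floor plate, was at 0.302, 18.0, 3.84 and 4.09 CPM in the fibroblast, iNSLC and clone 1 and 2 libraries. Its iPSC level was likewise intermediate, 13.1-fold above fibroblasts (edgeR adjusted p = 0.00141) and 4.55-fold below iNSLCs (edgeR adjusted p = 0.00784).

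GBX2, which sets the hindbrain side of the isthmus, opposite OTX2 in the textbook boundary, had 2 counts in fibroblasts, 10.9 CPM in iNSLCs, and 2.53 and 2.32 CPM in the clones. The pooled clones had 55.4 times the fibroblast level (95% counting interval 15.1 to 461; edgeR adjusted p = 0.00148) and were 4.5-fold below iNSLCs (edgeR adjusted p = 0.0132). OTX2 and GBX2 thus differed in order, since OTX2 was higher and GBX2 lower in iPSCs than in iNSLCs. Per length, OTX2 and GBX2 were at 16 and 17 TPM in iNSLCs, while in clone 1 they were at 64.6 and 3.66 TPM and in clone 2 at 84.9 and 3.41 TPM.

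The PAX factors moved in opposite directions. PAX5, an isthmus and B-cell factor, had 14 counts in fibroblasts (0.302 CPM), 0 in iNSLCs, and 4.81 and 6.51 CPM in the clones. Both clones were above both other libraries. Their mean was 18.7-fold over fibroblasts (edgeR adjusted p = 0.00311) and 54.1-fold over the iNSLC floor (edgeR adjusted p = 0.00516). PAX2, which acts at the isthmus and in the optic stalk and kidney, was at 3.67 CPM in fibroblasts and 6.25 CPM in iNSLCs, with 2 counts in clone 1 and 12 in clone 2 (0.0845 and 0.262 CPM). The pooled clones were 18.2-fold below fibroblasts (95% counting interval 10.6 to 34.0; edgeR adjusted p = 0.00431) and 31.0-fold below iNSLCs (95% counting interval 18.0 to 57.8; edgeR adjusted p = 0.00844). EN1, a midbrain, limb and dermal fibroblast factor, was at 11.1 CPM in fibroblasts, 1.33 CPM in iNSLCs, and 0.633 and 0.153 CPM in the clones. It was 28.2-fold lower in iPSCs than in fibroblasts (edgeR adjusted p = 0.00529), and its 3.37-fold lower level than in iNSLCs was not called (edgeR adjusted p = 0.142). EN2 had 2 counts in fibroblasts, 0 in iNSLCs, and 5 and 4 in the clones.

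The distal-less genes DLX1, DLX2, DLX5 and DLX6 were all called lower in iPSCs than in iNSLCs (14.1% of all tested genes). The ratios were 10.5-fold to 18.7-fold. In iNSLCs, 3 of these 4 genes exceeded fibroblasts by at least 4-fold (13.2% of all tested genes). Their relatives DLX3 and DLX4, outside the main list, were highest in fibroblasts, at 7.13 and 20.8 CPM. In iNSLCs they were at 4.43 and 3.77 CPM. DLX3 was 5.85-fold lower in iPSCs than in iNSLCs (edgeR adjusted p = 0.0256). DLX4 was 1.23-fold higher and not called (edgeR adjusted p = 0.592). DLX factors drive ventral forebrain interneurons and also branchial arch, limb and epidermal appendages. DLX5 was at 1.90 CPM in fibroblasts, 44.0 CPM in iNSLCs, and 3.38 and 4.98 CPM in the clones. It was 23.1-fold higher in iNSLCs than in fibroblasts (95% counting interval 18.6 to 29.1) and 10.5-fold lower in iPSCs than in iNSLCs (edgeR adjusted p = 0.00404). DLX6 was at 0.130, 8.66, 0.507 and 0.787 CPM in the fibroblast, iNSLC and clone 1 and 2 libraries, 13.4-fold lower in iPSCs than in iNSLCs (edgeR adjusted p = 0.00867). Against fibroblasts, DLX5 was 2.20-fold (edgeR adjusted p = 0.0358) and DLX6 4.99-fold (edgeR adjusted p = 0.0295) higher in iPSCs, calls that were lost for both when only the 3 libraries compared were fitted and for DLX6 with DESeq2.

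DLX1 and DLX2, the other neighbouring pair, fell below the fibroblast level in iPSCs. DLX1 was at 2.09 CPM in fibroblasts, 16.2 CPM in iNSLCs, and 0.929 and 0.809 CPM in the clones, a level 18.7-fold below iNSLCs (edgeR adjusted p = 0.00305) and 2.41-fold below fibroblasts (edgeR adjusted p = 0.0243). The call against fibroblasts was lost with DESeq2, with total-count scaling and with 3 libraries in the fit. DLX2 was at 4.62 CPM in fibroblasts, 8.76 CPM in iNSLCs, and 0.507 and 1.14 CPM in the clones, 10.7-fold below iNSLCs (edgeR adjusted p = 0.0145) and 5.62-fold below fibroblasts (edgeR adjusted p = 0.0146). DLX1 shares 354 exon bases with METAP1D, and DLX6 shares 142 with another gene.

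On Sscrofa11.1, DLX1 (chr15:78185790-78191297, plus strand) and DLX2 (chr15:78201917-78204157, minus strand) lie 10619 bases apart, and DLX6 (chr9:76623661-76633291, plus strand) and DLX5 (chr9:76639513-76644690, minus strand) 6221 bases apart. Per length, the 2 genes of a pair were unequal in every library, and the balance of DLX1 and DLX2 differed between libraries. The fibroblast level of DLX6 rests on 6 counts. DLX1 and DLX2 were at 1.62 and 9.36 TPM in fibroblasts, at 17.7 and 24.9 TPM in iNSLCs, at 0.941 and 1.34 TPM in clone 1 and at 0.834 and 3.07 TPM in clone 2. DLX5 and DLX6 were at 2.08 and 0.0534 TPM in fibroblasts, at 67.7 and 5.01 TPM in iNSLCs, at 4.84 and 0.273 TPM in clone 1 and at 7.28 and 0.432 TPM in clone 2, so DLX5 exceeded DLX6 in every library.

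**Figure D3:**
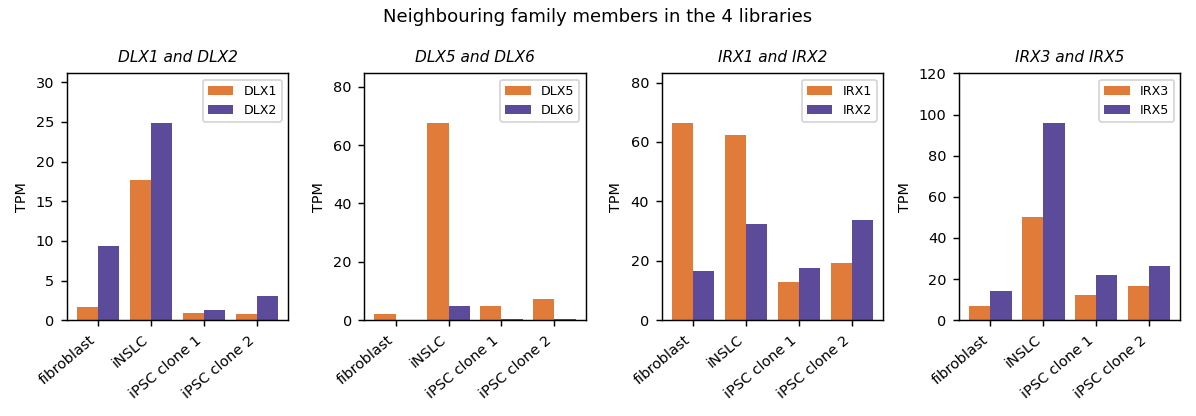
Levels in TPM of 4 neighbouring pairs of family members, 1 bar per gene and library. DLX5 stands at 67.7 TPM in the iNSLC library and under 10 TPM in the others, whereas IRX1 is highest in fibroblasts at 66.5 TPM and IRX5 in iNSLCs at 96.1 TPM.

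The Iroquois factors IRX1, IRX2, IRX3 and IRX5 divide the neural plate and the forebrain and act in limb, heart and skin. These genes remained at 5 CPM or more in every library, but only some changed. Their relatives IRX4 and IRX6, outside the main list, stayed under 5 CPM. IRX4 was at 1.55 CPM in fibroblasts, 0.419 CPM in iNSLCs, and 0.169 and 0.306 CPM in the clones. IRX6 was at 0.0432, 0.803, 0.676 and 0.787 CPM in the same order. IRX3 was at 13.4 CPM in fibroblasts, 67.0 CPM in iNSLCs, and 17.7 and 23.4 CPM in the clones. IRX5, its partner 532 kb away on chromosome 6, was at 7.88, 38.2, 9.46 and 11.1 CPM in the same order. These 2 genes had similar ratios, since iNSLCs exceeded fibroblasts by 5.0-fold for IRX3 and 4.85-fold for IRX5, and iPSCs were below iNSLCs by 3.26-fold (edgeR adjusted p = 0.00847) and 3.71-fold (edgeR adjusted p = 0.00619). Neither was called against fibroblasts (edgeR adjusted p = 0.0667 for IRX3 and 0.178 for IRX5), although both were called higher with total-count scaling.

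IRX1 and IRX2, 605 kb apart on chromosome 16, differed from each other. IRX1 was at 37.5 CPM in fibroblasts, 25.0 CPM in iNSLCs, and 5.57 and 8.11 CPM in the clones, 5.48-fold lower in iPSCs than in fibroblasts (edgeR adjusted p = 0.00195) and 3.66-fold lower than in iNSLCs (edgeR adjusted p = 0.0126). IRX2 was at 35.5 CPM in fibroblasts, 49.3 CPM in iNSLCs, and 28.5 and 53.9 CPM in the clones. The 2 clones lay on either side of both other libraries, and IRX2 was not called against either (edgeR adjusted p = 0.647 and 0.649).

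Of the 3 factors of ventral and intermediate progenitors, NKX6-1 and NKX2-2 had opposite courses. NKX6-1, a ventral progenitor factor that also acts in the pancreas, was at 0.561 CPM in fibroblasts, 27.7 CPM in iNSLCs, and 5.45 and 4.63 CPM in the clones. It was 49.3-fold higher in iNSLCs than in fibroblasts (95% counting interval 33.4 to 75.9), and in iPSCs 5.49-fold below iNSLCs (edgeR adjusted p = 0.00504) and 8.98-fold above fibroblasts (edgeR adjusted p = 0.00154). NKX2-2, which marks the most ventral neural progenitors next to the floor plate, was at 6.05 CPM in fibroblasts, 0.803 CPM in iNSLCs, and 0 counts in clone 1 and 7 counts in clone 2 (0.153 CPM). The pooled clones were 60.0-fold below fibroblasts (95% counting interval 28.7 to 151; edgeR adjusted p = 0.00583) and 7.96-fold below iNSLCs (95% counting interval 3.31 to 22), the second not called (edgeR adjusted p = 0.0859). DBX1, of intermediate progenitors, had 0 counts in fibroblasts, 2 in iNSLCs, and 4 and 24 in the clones, under 1 CPM in every library and not called against fibroblasts (edgeR adjusted p = 0.0596) except with total-count scaling and with 3 libraries in the fit.

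The POU class III factors, which drive neural progenitors and their neurons, were all at least 4-fold higher in iNSLCs than in fibroblasts (13.2% of all tested genes). POU3F2 (BRN2) had 0 counts in fibroblasts, 9.32 CPM in iNSLCs, and 0.38 and 0.35 CPM in the clones. Its iPSC level was 25.5-fold below iNSLCs (edgeR adjusted p = 0.00448) and 5.63-fold above the fibroblast floor (edgeR adjusted p = 0.00637). POU3F3 was at 1.97, 8.80, 1.35 and 0.459 CPM in the fibroblast, iNSLC and clone 1 and 2 libraries, 9.72-fold lower in iPSCs than in iNSLCs (edgeR adjusted p = 0.0263) and not called against fibroblasts (edgeR adjusted p = 0.197). POU3F1 (OCT6), which primed pluripotent cells also express, had 2 counts in fibroblasts, 1.5 CPM in iNSLCs, and 1.39 and 1.05 CPM in the clones. It differed from the other 2 in that the iPSC level was not called against iNSLCs (1.23-fold lower, edgeR adjusted p = 0.719), while the pooled clones had 27.0 times the fibroblast level (95% counting interval 7.24 to 227; edgeR adjusted p = 0.0102).

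The TALE cofactors MEIS1, MEIS2 and PBX3, which bind DNA together with HOX and other homeobox proteins, were among the more abundant factors in all 4 libraries. MEIS2 was at 18.4 CPM in fibroblasts, 109 CPM in iNSLCs, and 26.1 and 24.2 CPM in the clones, 4.33-fold lower in iPSCs than in iNSLCs (edgeR adjusted p = 0.00218). PBX3 was at 15.9, 68.5, 31.6 and 35.8 CPM in the same order, 2.03-fold lower in iPSCs than in iNSLCs (edgeR adjusted p = 0.0123) and 2.12-fold higher than in fibroblasts (edgeR adjusted p = 0.00471). The 1.37-fold higher MEIS2 level in iPSCs than in fibroblasts passed narrowly (edgeR adjusted p = 0.0432) and was lost with DESeq2, without the low-count filter and with 3 libraries in the fit. MEIS1 was at 30.9 CPM in fibroblasts, 40.3 CPM in iNSLCs, and 25.8 and 17.3 CPM in the clones. Both clones were below both other libraries, but MEIS1 was called against neither fibroblasts (edgeR adjusted p = 0.155, with a log2 ratio of -0.53 that became 0.04 with total-count scaling) nor iNSLCs (edgeR adjusted p = 0.0653).

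The COUP-TF nuclear receptors, which pattern cortex and act in mesenchyme, differed in iPSCs. NR2F1 was at 8.98 CPM in fibroblasts, 64.5 CPM in iNSLCs, and 7.85 and 7.15 CPM in the clones, 8.60-fold lower in iPSCs than in iNSLCs (edgeR adjusted p = 0.00187). Against fibroblasts it was not called (edgeR adjusted p = 0.255), with a log2 ratio of -0.26 that became 0.31 with total-count scaling. NR2F2 was at 22.5 CPM in fibroblasts, 94.3 CPM in iNSLCs, and 168 and 43.3 CPM in clones 1 and 2. The clones lay on either side of the iNSLC library, and NR2F2 was called against neither fibroblasts (edgeR adjusted p = 0.0856) nor iNSLCs (edgeR adjusted p = 0.893). Its log2 ratio to fibroblasts of 2.22 was 0.94 without clone 1 and 2.89 without clone 2, and that to iNSLCs of 0.16 was -1.12 without clone 1 and 0.83 without clone 2. The 4-fold count of NR2F2 against fibroblasts therefore rests on clone 1.

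The GLI factors carry hedgehog signalling to the nucleus, GLI1 as a target and activator, GLI2 mainly as an activator and GLI3 mainly as a repressor. Each had a different order of levels. GLI3 was at 73.7 CPM in fibroblasts, 113 CPM in iNSLCs, and 20.1 and 29.0 CPM in the clones, 3.0-fold lower in iPSCs than in fibroblasts (edgeR adjusted p = 0.00472) and 4.58-fold lower than in iNSLCs (edgeR adjusted p = 0.00612). GLI2 was at 10.1 CPM in fibroblasts, 28.0 CPM in iNSLCs, and 23.1 and 26.6 CPM in the clones, 2.46-fold higher in iPSCs than in fibroblasts (edgeR adjusted p = 0.00528) and not called against iNSLCs (edgeR adjusted p = 0.525). GLI1 was lowest in iNSLCs, at 8.88 CPM in fibroblasts, 0.733 CPM in iNSLCs, and 4.73 and 6.08 CPM in the clones. Its iPSC level was 7.37-fold above iNSLCs (edgeR adjusted p = 0.0118) and not called against fibroblasts (edgeR adjusted p = 0.112). The GLI1 model shares 3686 exon bases with INHBE and ARHGAP9, and since the sources used here do not state whether counting used the strand, its counts are uncertain.

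None of 13 other genes of the hedgehog pathway was lowest in iNSLCs, as GLI1 was. Of these 13, iPSCs had 6 called higher and 3 called lower when set against fibroblasts (29.6% and 27.5% of all tested genes), and 2 higher and 5 lower than in iNSLCs (14.1% of all tested genes in each direction). PTCH1, the receptor and a hedgehog target, was at 13.3 CPM in fibroblasts, 88.3 CPM in iNSLCs, and 49.7 and 75.7 CPM in the clones, so that iNSLCs held its highest level. The coreceptors BOC and CDON peaked in iNSLCs, at 10.2, 107, 14.6 and 21.6 CPM for BOC and at 50.5, 182, 44.2 and 50.4 CPM for CDON in the fibroblast, iNSLC and clone 1 and 2 libraries. In iPSCs, BOC was 5.89-fold (edgeR adjusted p = 0.00522) and CDON 3.86-fold (edgeR adjusted p = 0.00275) lower than in iNSLCs. The coreceptor GAS1 was highest in fibroblasts, at 49.7, 17.4, 2.66 and 4.39 CPM, and DISP1, which releases the ligand, was at 71.2, 66.6, 21.6 and 25.4 CPM. GAS1 was 4.94-fold (edgeR adjusted p = 0.0115) and DISP1 2.83-fold (edgeR adjusted p = 0.0054) lower in iPSCs than in iNSLCs.

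Among 16 of 17 listed patterning ligands and antagonists that were matched, iPSCs had 11 called higher and 1 called lower when set against fibroblasts (29.6% and 27.5% of all tested genes), and 5 higher and 4 lower than in iNSLCs (14.1% of all tested genes in each direction). CER1, a secreted antagonist of NODAL, BMP and WNT that promotes head formation, had 0 counts in fibroblasts, 0.140 CPM in iNSLCs, and 33.4 and 9.97 CPM in the clones. BMP4 was at 10.2, 14.4, 62.9 and 92.0 CPM in the same order, 5.36-fold higher in iPSCs than in iNSLCs (edgeR adjusted p = 0.00853). WNT7B had the reverse course, at 1.88, 16.8, 2.87 and 1.90 CPM, 7.03-fold lower in iPSCs than in iNSLCs (edgeR adjusted p = 0.00888). FGF17, an isthmus and rostral forebrain ligand, had 0 counts in fibroblasts, 0.733 CPM in iNSLCs, and 16.5 and 3.78 CPM in the clones, and was not called against iNSLCs (edgeR adjusted p = 0.0698).

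Of 32 other regional factors, iPSCs had 14 called higher and 3 called lower when set against fibroblasts (29.6% and 27.5% of all tested genes), and 3 higher and 8 lower than in iNSLCs (14.1% of all tested genes in each direction). FOXA2, of floor plate and endoderm, had 0 counts in fibroblasts, 1.01 CPM in iNSLCs, and 30.4 and 24.6 CPM in the clones, 27.2-fold above iNSLCs (edgeR adjusted p = 0.00268). LHX1, a LIM factor of head organizer, kidney and interneurons, had 0 counts in fibroblasts, 2.83 CPM in iNSLCs, and 62.2 and 48.1 CPM in the clones, 19.5-fold above iNSLCs (edgeR adjusted p = 0.00248). PAX3, a dorsal neural tube and neural crest factor, was at 0.972, 21.6, 1.14 and 2.12 CPM, 13.3-fold lower in iPSCs than in iNSLCs (edgeR adjusted p = 0.00712). NKX2-1 and NKX2-4 had 0 counts in all 4 libraries.

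Of 18 of 19 listed relatives of the 40 factors that were matched, iPSCs had 9 called higher and 6 called lower when set against fibroblasts (29.6% and 27.5% of all tested genes), and 2 higher and 2 lower than in iNSLCs (14.1% of all tested genes in each direction). TGIF1, a TALE repressor, was at 51.0, 67.1, 161 and 159 CPM in the fibroblast, iNSLC and clone 1 and 2 libraries, 2.38-fold higher in iPSCs than in iNSLCs (edgeR adjusted p = 0.00536). SIX5 was at 13.8, 11.3, 2.53 and 6.12 CPM and was not called against iNSLCs (edgeR adjusted p = 0.118).

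Markers of tissues that also use these factors were compared across the same libraries. The neuron markers summed to 11.8, 646, 230.4 and 229 CPM in the fibroblast, iNSLC and clone 1 and 2 libraries, with none at 0. Of these 5, 4 were called lower in iPSCs than in iNSLCs, beside 14.1% of all tested genes in each direction. The neural stem markers included 4 of 6 called lower in iPSCs than in iNSLCs and none called higher. The neural crest markers summed to 14.1, 131, 196 and 97.6 CPM, with 1 of 4 called higher (FOXD3) and 2 lower (SOX10 and TFAP2B). ERBB3, which was not called, held most of the iNSLC and clone sums (93.1, 185 and 85.7 CPM). The placode markers summed to 93.4, 39.1, 11.5 and 13.9 CPM and the mesenchyme markers to 1266, 187, 106 and 33.0 CPM, with 4 of 4 and 1 of 5 called lower. All 6 fibroblast markers were called lower in iPSCs than in fibroblasts and than in iNSLCs (27.5% and 14.1% of all tested genes). The part of these cell types in the levels of the 40 factors was not tested.

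The 2 clones agreed in order of magnitude for most factors. Clone 2 was higher for 26 of the 40 and clone 1 for 14, beside 54.6% of all tested genes higher in clone 2. The ratio was within 2-fold for 29 of the 40 factors, beside 90.9% of all tested genes, and the median absolute log2 ratio was 0.50 beside 0.20. Many of the factors are weakly expressed, where counting error widens ratios, so these shares are not on equal footing. No factor met the 4-fold, 1 CPM rule, with 0 higher in clone 2 (background 0.146%) and 0 lower (background 1.04%).

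Of the 11 factors more than 2-fold apart, 6 were higher in clone 2 and 5 in clone 1. Higher in clone 2 were RAX by 3.77-fold (95% counting interval 1.70 to 9.85), LHX2 by 2.47-fold (1.77 to 3.51), DLX2 by 2.24-fold (1.18 to 4.62) and DBX1 by 3.11-fold (1.07 to 12.3). SIX6 and PAX2, with 2 counts each in clone 1, had intervals that included a ratio of 1. Lower in clone 2 were NR2F2 by 3.87-fold (3.67 to 4.09), EN1 by 4.14-fold (1.59 to 12), POU3F3 by 2.94-fold (1.65 to 5.37) and LHX9 by 2.61-fold (1.34 to 5.21), while the interval of EN2 included 1. NR2F2 was the only 1 of these 11 above 10 CPM in both clones. Of the 11 factors grouped under forebrain and eye field, SIX4 included, 9 were higher in clone 2 (54.6% of all tested genes), and the exceptions were LHX9 and EMX2. With 1 library per clone, differences between clones have no replicate check.

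**Figure D4:**
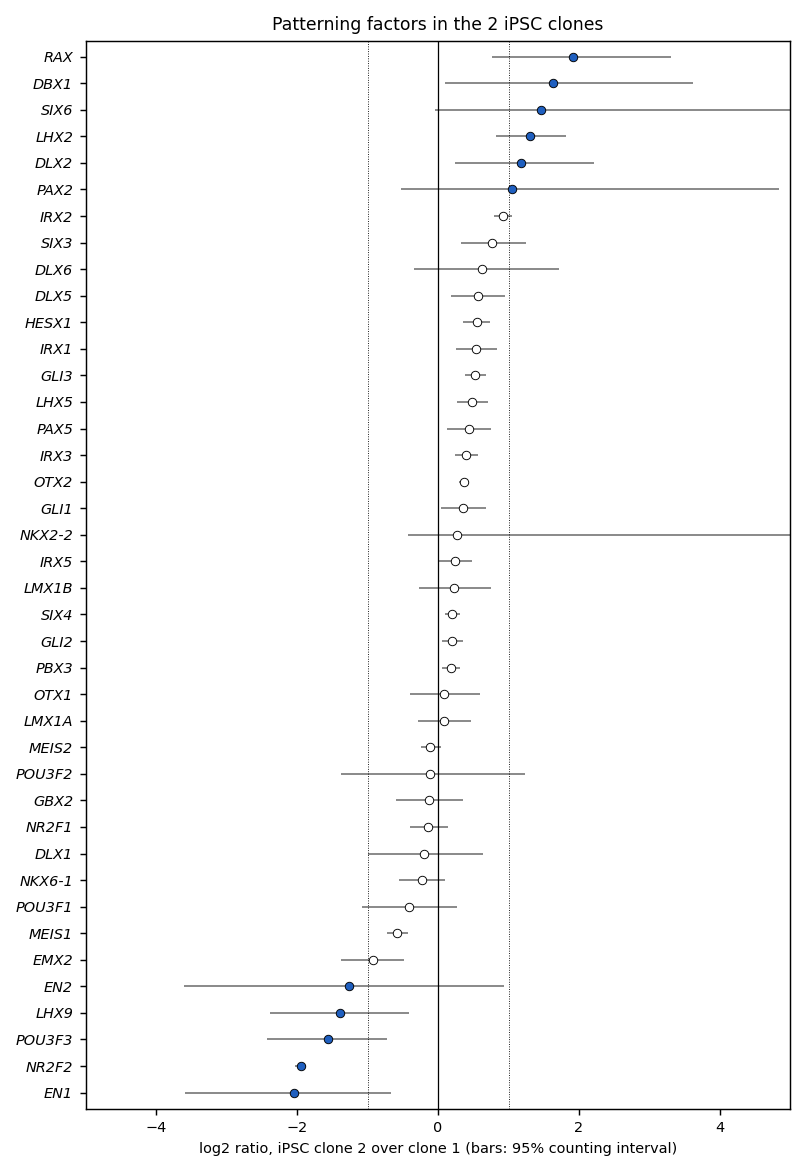
Log2 ratio of iPSC clone 2 over clone 1 for each factor, sorted, with 95% counting intervals as bars. Filled points are more than 2-fold apart, dotted lines mark 2-fold, and libraries under 3 counts are raised to 3 for the points. RAX lies at the top (3.77-fold higher in clone 2) and EN1 at the bottom (4.14-fold lower), while NR2F2 has the narrow interval of an abundant gene.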

How the data were processed

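Read counts per gene, as deposited by the authors, were analysed for 4 porcine libraries: 1 of fibroblasts, 1 of iNSLCs and 2 of iPSC clones. The submitters' processing notes name Trim Galore 0.4.0 for trimming, STAR 2.5.3a for alignment on Sscrofa11.1 and featureCounts 1.5.2 for counting. The counts were whole numbers, not normalized. The sources used here do not state whether counting used the strand or whether reads of feeder cells were removed.

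Symbols were taken by Ensembl identifier for 14857 of 25880 genes and by position, with at least 80% overlap of a RefSeq gene on the same assembly, for 1664. The 40 factors and all other lists came from textbook knowledge and were chosen with earlier results of these data known. Every matched factor is named. Those at 1 CPM or more in any library have values in all 4 libraries, and of the hedgehog, ligand, regional and relative lists up to 4 genes at 10 CPM or more are named by size of ratio between iPSCs and iNSLCs. Exon bases shared with another gene make the counts of 6 factors less certain (OTX1, HESX1, DLX1, DLX6, GLI1 and NR2F1). PTCH1, NKX2-1, NKX2-4, IRX4, IRX6, DLX3 and DLX4 were added after their values were seen. Some genes that these rules select are not reported here.

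Counts were scaled by TMM and tested with edgeR 4.0.16 (R 4.3.3; filterByExpr, quasi-likelihood F test, two-sided, Benjamini-Hochberg over 15739 genes, threshold 0.05) in 1 fit of all 4 libraries and 3 groups. The spread came from the clones alone (residual degrees of freedom: 1; common biological coefficient of variation: 0.198) and was assumed to hold for the single libraries too. Data were also simulated with 1 spread shared by all genes and libraries, changing only well-counted genes. There the test recovered 99 of 100 genes changed by 4-fold in iPSCs against fibroblasts and 97 of 100 against iNSLCs. It also called 10 and 7 genes that were not changed. This recovery does not cover weakly counted factors or single libraries with another spread. Folds are ratios of scaled CPM. If any library in the lower group had 3 counts or fewer, and the group was not all at 0, ratios are of pooled, unraised counts. Intervals are exact conditional binomial at 95% and cover counting error only. TPM was computed from the counts and the deposited gene lengths. Alternatives were DESeq2 1.42.0, RLE and total-count scaling, no low-count filter, 3 libraries in the fit, other size limits, identifier names only, and each clone left out.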

Additional observations from a re-analysis of the deposited data

How the results depend on the processing

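With RLE scaling every call among the 40 factors was kept in both tested comparisons. The side of the threshold was kept for 69 of the 74 ratios with an adjusted p from DESeq2, for 76 of 78 without the low-count filter, for 72 of 78 with total counts and for 71 of the 77 that 3 libraries in the fit gave. Under these alternatives the sign of a tested iPSC ratio changed only for MEIS1 and NR2F1 against fibroblasts with total counts, neither of them called. Ratios of iNSLCs to fibroblasts are not in this tally. The calls lost or gained were those of DLX1, DLX5, DLX6, MEIS1, MEIS2, SIX3, SIX4, DBX1, IRX3, IRX5 and NR2F2. Total-count scaling raised all ratios to fibroblasts by 0.57 (iPSCs) and 0.58 (iNSLCs) on the log2 scale, which took the factors at least 4-fold lower in iPSCs than in fibroblasts to 4 instead of 7. At an adjusted p of 0.01, a threshold chosen after seeing the data, 3 factors instead of 7 were higher in iPSCs than in iNSLCs. With a minimum of 10 CPM, the size counts were 3 higher and 4 lower for iPSCs against fibroblasts, 2 higher for iPSCs against iNSLCs, and 2 lower for iNSLCs against fibroblasts. Between clones, a 2-fold limit gave 3 factors higher and 2 lower in clone 2, and a minimum of 0.5 CPM gave 1 lower. Leaving out each clone gave 11 factors higher and 7 to 8 lower against fibroblasts, and 4 to 7 higher and 15 to 17 lower against iNSLCs, as values with no test. No paired analysis was possible because the fibroblast and iNSLC groups have 1 library each. Factors with few counts, in clone 1 above all, are measured least precisely, and a difference between the lone libraries includes any difference between cultures.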
